A study of Mus musculus with 24 samples.

Results

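This account concerns 41 mouse genes of the nuclear hormone receptor superfamily, leaving out the estrogen receptors (Esr1, Esr2) and the estrogen-related receptors (Esrra, Esrrb, Esrrg), as measured in blastocysts. They were found by gene name in the annotation of the array, which carries 84 probes for them among 56605 probes and 37005 genes. Each of 24 one-colour Agilent arrays measured the RNA of 1 pool of frozen expanded mouse blastocysts, the last stage before implantation. The pools belong to 6 conditions known by the codes HC1 to HC6, with 4 pools each. A pool held 15 blastocysts in HC1 to HC5 and 20 in HC6, so the number of embryos and the code cannot be told apart for HC6. The series is titled for bisphenol A, a plastic monomer with estrogenic activity, and for signalling through estrogen receptors at the membrane. Agent, dose and control are not tied to any code in the labels, nor are the strain and age of the mice given, so no direction of a treatment can be read from any difference between codes. The labels do not say that the pools of a code came from separate animals or cultures, and p-values measure the spread between these pools, which may be technical.

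Nuclear receptors are transcription factors with a zinc finger domain that binds DNA and, in most members, a pocket for a small lipophilic ligand such as a steroid, retinoic acid, thyroid hormone or an oxysterol. Many of them bind direct repeats of a core hexamer as a heterodimer with a retinoid X receptor, and recruit coactivators or corepressors according to ligand. In the early embryo the best known members are Nr5a2, an activator of genes of the pluripotent cells, Nr0b1, a repressor that binds it, and Nr6a1, which silences Pou5f1 as embryonic cells differentiate.

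Sequences are given for the members whose detection or promoter is described further on. Of the 41 members, 37 were matched by symbol to the RefSeq table of promoters (GRCm38.p6), with 53 windows that run from 250 bases before to 50 bases after a transcription start. The core hexamer AGGTCA was searched on both strands, and it was present in 12 of 53 member windows, in 11 genes (22.6%), against 16.3% of all 32851 windows. The direct repeat with 5 spacer bases, DR5, known as the retinoic acid response element, was searched on both strands with its usual variation in each copy. Among member windows it was found in that of Rarb alone, and in 32 of all 32851 windows (0.0974%). A copy within the repeat may itself be the hexamer, so the searches overlap. The 250 bases before the start of Rarb, the retinoic acid receptor beta, lie at chr14:16575477-16575726 on the minus strand, and those before 1 of the 2 listed starts of Nr5a2 at chr1:136960449-136960698 on the minus strand. The other Nr5a2 window, chr1:136953581-136953880, does not hold the hexamer. Capitals mark the repeat, whose first base is 53 bases before the start of Rarb, and the hexamer, whose first base is 64 bases before that start of Nr5a2. A match describes the letters of the window and says nothing of binding in these embryos.
Rarb promoter: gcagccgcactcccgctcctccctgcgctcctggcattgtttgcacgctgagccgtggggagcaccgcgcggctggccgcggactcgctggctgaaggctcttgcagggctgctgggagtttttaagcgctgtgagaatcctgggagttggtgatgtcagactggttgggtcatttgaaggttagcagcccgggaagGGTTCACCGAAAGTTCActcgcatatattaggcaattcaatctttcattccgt
Nr5a2 promoter: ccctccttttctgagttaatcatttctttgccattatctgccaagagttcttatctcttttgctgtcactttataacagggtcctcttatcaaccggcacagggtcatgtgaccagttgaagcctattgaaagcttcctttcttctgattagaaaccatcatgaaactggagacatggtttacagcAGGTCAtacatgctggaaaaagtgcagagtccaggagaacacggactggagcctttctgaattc

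Probes of 60 bases whose mapped block on the genome exceeds the probe by at least 30 bases were counted as crossing a splice junction. They are shown for Rxrb, the retinoid X receptor beta, and for Nr1d1, the clock repressor also called Rev-erb alpha, because their detection differed. The Rxrb probes map to chr17:34173690-34173864 and chr17:34173894-34174155 on the plus strand, and the Nr1d1 probe to chr11:98630526-98631028 on the minus strand, in the mm9 coordinates of the array's annotation. Each has at least 1 reading frame with no stop codon. The upstream Rxrb probe was well above background on 15 arrays, the downstream one on 16 arrays, and the Nr1d1 probe, the only one of that gene, on 0 of 24 arrays.
Rxrb upstream probe: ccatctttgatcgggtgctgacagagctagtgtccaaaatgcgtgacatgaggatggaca
Rxrb downstream probe: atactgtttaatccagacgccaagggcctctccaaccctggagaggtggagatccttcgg
Nr1d1 probe: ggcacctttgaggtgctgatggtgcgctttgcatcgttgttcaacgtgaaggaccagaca

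The arrays detected the lineages of a blastocyst. All 7 trophectoderm, 6 inner cell mass and 6 primitive endoderm markers were well above background on every array, whereas 0 of 5 oocyte, 1 of 7 cumulus and granulosa (Foxl2), 1 of 5 fibroblast (Thy1) and 1 of 4 blood markers on the array (Ptprc) were. Of these last lists, 2 oocyte, 3 cumulus and granulosa, 3 fibroblast and 0 blood markers were well above background on 0 arrays. Their other markers were so on at least 1 array. The 75th percentile of the processed signal lay between 65.1 and 177 over the arrays, and 38.6% to 49.7% of spots were well above background. The array of HC5 replicate 4 had the lowest 75th percentile, with 39.1% of spots above background. The number of arrays, 4 a code, limits the precision of every value below.

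Values are the log2 of the processed signal minus the 75th percentile of the same array, so that 0 is that percentile and negative values are dimmer spots. Brightness depends on the probe, and levels of different genes were not compared. A spot counts as detected where the scanner software called it well above background. Of the 41 members, 16 had a probe detected on all 24 arrays (39%, against 35.6% of all genes), 11 on 4 to 23 arrays, 7 on 1 to 3 and 7 on 0 arrays. Of all 37005 genes, 5283 were detected on 4 to 23 arrays, 8371 on 1 to 3 and 10186 on 0. Without a Pgr probe on the opposite strand, described further on, the member counts on 1 to 3 and on 0 arrays were 6 and 8. In bulk pools, fewer cells that express a gene and less of its RNA per cell cannot be told apart.

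Among the retinoid receptors, the retinoic acid receptors Rara, Rarb and Rarg and their partners Rxra and Rxrb were detected on all 24 arrays, and Rxrg on 19. Of the lipid and bile acid sensors, Ppard, a fatty acid sensor, and Nr1h2, the broadly expressed liver X receptor for oxysterols, were detected on all 24. Nr1h4, the bile acid receptor FXR, was detected on 17, Pparg, the regulator of fat cell genes, and Nr1h3, the other liver X receptor, on 15 each, and Ppara, the liver's fatty acid sensor, on 0. Thra, a thyroid hormone receptor, was detected on all 24 arrays, while its paralog Thrb reached 1 array. The xenobiotic receptors differed likewise, with Nr1i3 (CAR) on 15 arrays and Nr1i2 (PXR) on 1, and Vdr, the vitamin D receptor, was detected on 0.

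No clock receptor was detected on all 24 arrays. Nr1d2 (Rev-erb beta), a repressor of the clock gene Bmal1, was detected on 15 arrays, Rora, an activator at the same sites, on 1, and Nr1d1 and Rorb on 0. Hnf4a, a regulator of endoderm and liver genes, and the orphan receptors Nr2c1, Nr2c2 and Nr2f6 were detected on all 24, Nr2f2 (COUP-TFII) on 16 and Hnf4g on 2. The neural and retinal receptors Nr2e1 and Nr2e3, and Nr2f1, were detected on 0 arrays. Of the steroid receptors, the glucocorticoid receptor Nr3c1 was detected on all 24 and the mineralocorticoid receptor Nr3c2 on 2. The progesterone receptor Pgr reached 3 arrays only by a probe that the annotation lists on the strand opposite to the gene, at chr9:8898921-8898980 on the minus strand (mm9), while its 3 other probes were detected on 0 arrays. No other member had a probe listed on the opposite strand.

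The immediate early receptors Nr4a1, Nr4a2 and Nr4a3, which are induced within a short time of many stimuli and need no known ligand, were detected on 24, 23 and 16 arrays. Nr5a2 and Nr6a1 were detected on all 24, Nr0b1 and Nr5a1 (steroidogenic factor 1) on 21 each, and Nr0b2, the bile acid induced repressor SHP, on 1. For comparison, Esr2, Esrra and Esrrb were detected on all 24 arrays, Esr1 on 2 and Esrrg on 1.

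**Figure D1:**
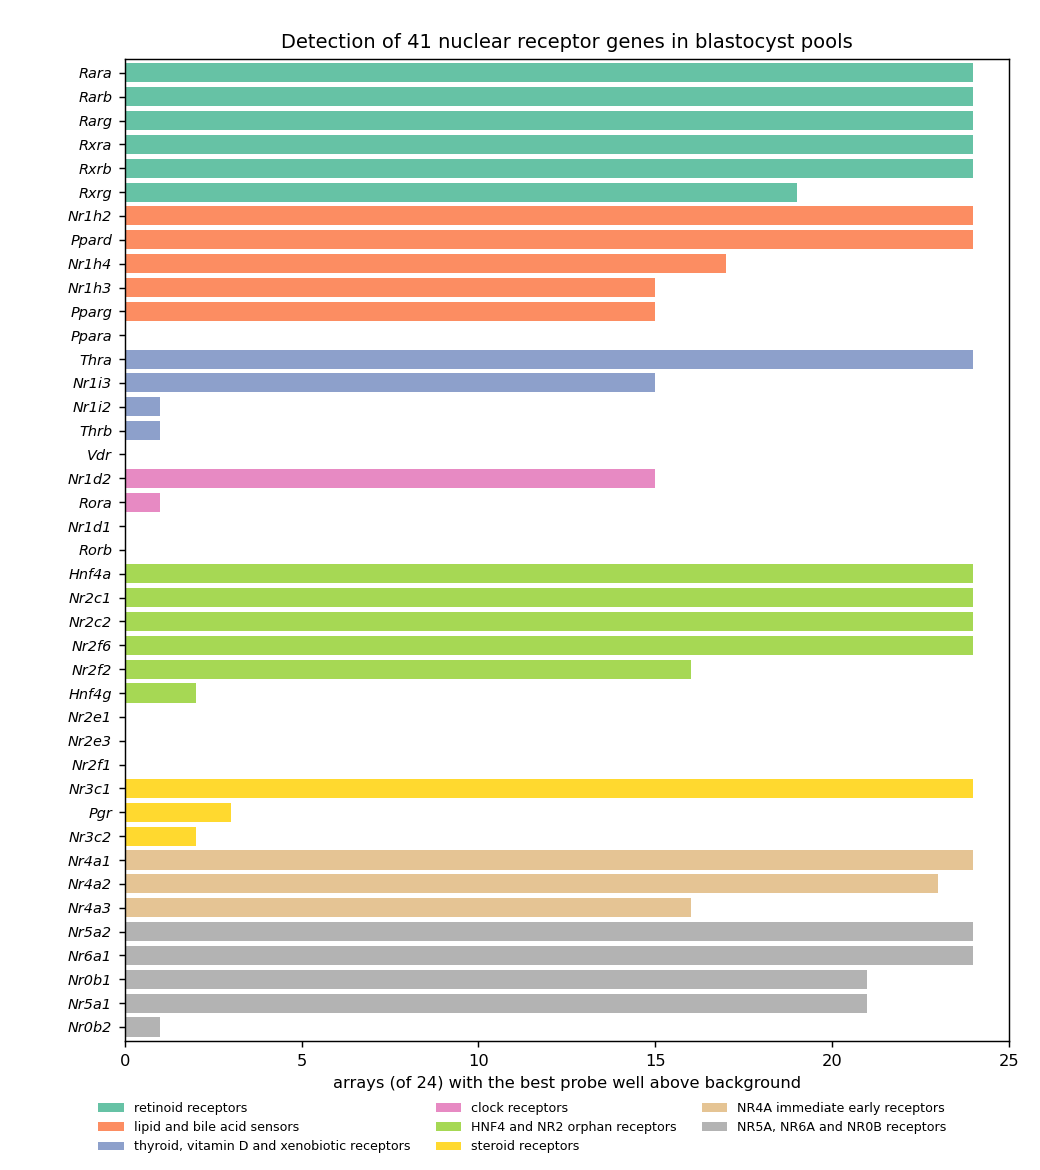
Number of arrays, of 24, on which the best probe of each of the 41 receptor genes was well above background (horizontal axis), with genes grouped by role (colours). Of the genes, 16 reach all 24 arrays and 7 stay at 0, or 8 with Pgr, whose only detected probe lies on the opposite strand.

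Detection depended on the probe as well as on the gene. Of the 16 members detected on all 24 arrays, Nr2c2 and Nr3c1 had 2 such probes and the others 1. Of 9 member probes counted as crossing a splice junction, 0 were detected on all 24 arrays, whereas 18 of the 75 other member probes (24%) were. Over the whole array the shares were 35.8% of 3969 junction probes and 31.7% of 52240 others. The Rxrb probe used below, which lies at chr17:34175279-34175338 (mm9), was detected on all 24 arrays, while its junction probes printed above were detected on 15 and 16. For Rarb, the used probe at chr14:17263511-17263570 (mm9) was detected on all 24 arrays and the other 3 probes on 0 or 1.

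The comparison that the codes allow is whether any code differs from the others. It was tested for the 27 members, of 18448 genes, whose probe was well above background on at least 4 arrays. These members passed a filter on brightness and are not the whole family. In the limma F-test over the 6 codes, 0 of 27 members and 0 of 18448 genes (0%) passed a Benjamini-Hochberg adjusted p under 0.05. At an unadjusted p under 0.05 there was 1 member (3.7%), Rara, beside 391 genes (2.12%), and with the mean of a gene's kept probes in place of the brightest one there were 0 members beside 423 genes. For each code against the mean of the other 5, 0 members and 0 genes (0%) passed in limma after adjustment. At an unadjusted p under 0.05, 7 of 162 combinations of member and code (4.32%) stood beside 2.97% of all combinations of gene and code. By code these were 2 members for HC2 (2.29% of genes), 2 for HC5 (5.75%), 2 for HC6 (2.99%), 1 for HC1 (3.28%), and 0 for HC3 (1.65%) and for HC4 (1.84%). In the 15 pairs of codes 0 members and 0 genes (0%) passed in limma, and 13 of 405 combinations of member and pair (3.21%) had an unadjusted p under 0.05, beside 2.89% over all genes.

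The differences between codes were estimated with a median standard error of 0.17 log2 units for members and 0.15 for all genes. The 95% interval of 136 of the 162 member differences (84%) lay wholly within a 2-fold change, as it did for 86.7% of all combinations. For the other combinations the interval reached past 2-fold. The median difference of the members ran from -0.06 in HC6 to 0.03 in HC3, and that of all genes from -0.02 in HC2 to 0.03 in HC4. The members higher in the mean than the other codes numbered 17 of 27 for HC4 (61.7% of all genes), 16 for HC2 (43.2%), 15 for HC1 (47.7%) and for HC3 (54.4%), 14 for HC5 (46.9%) and 8 for HC6 (48.6%). All 4 pools of a code lay above or below the other 20 pools for 0 members in any code, beside 0.0163% of genes in HC1, 0.00542% in HC4 and in HC6, and 0% in HC2, HC3 and HC5.

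**Figure D2:**
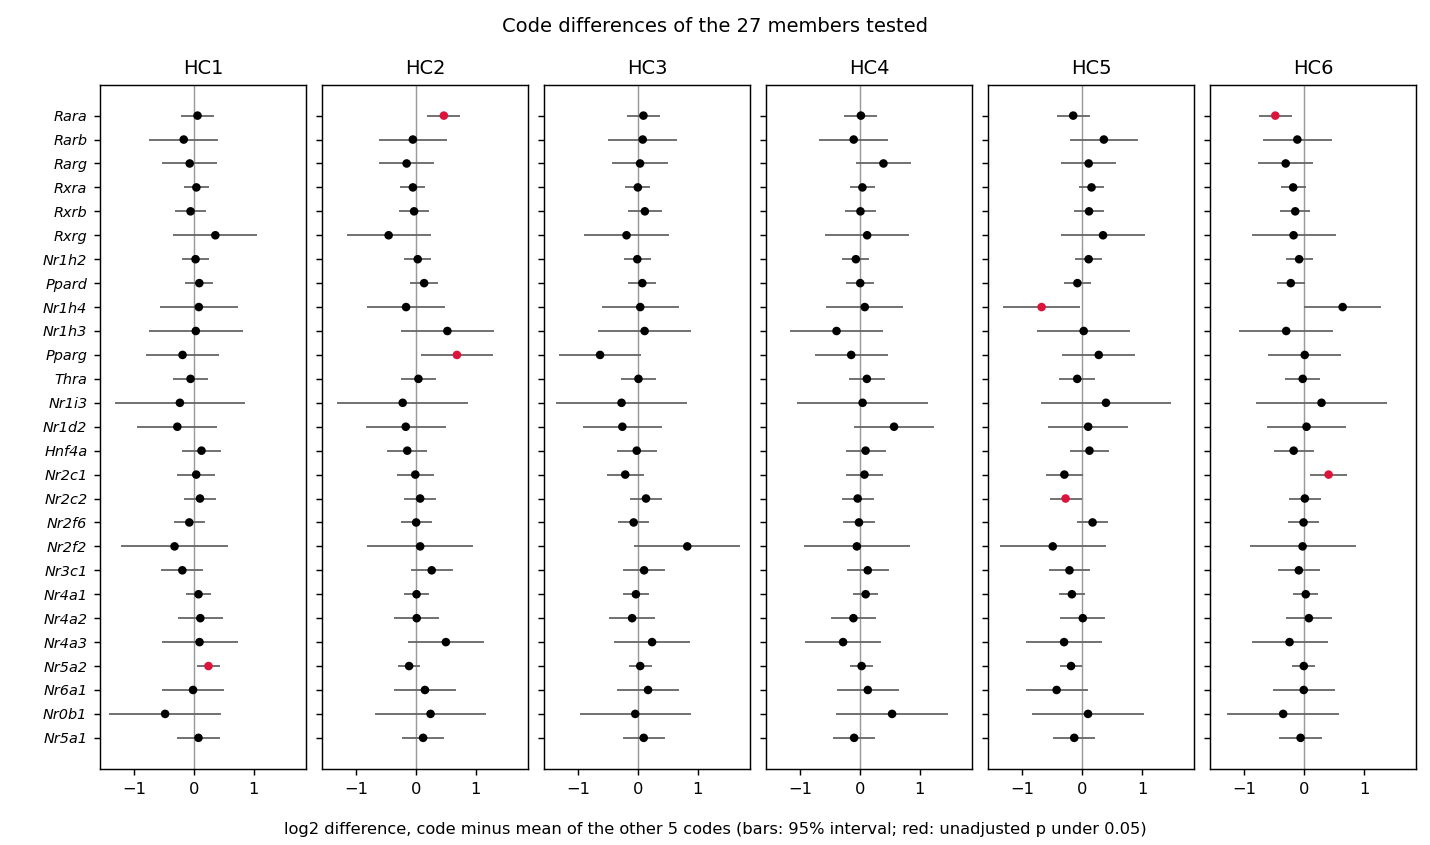
Difference of each code from the mean of the other 5 (log2, horizontal axis) for the 27 members tested, with a panel for each code and bars for the 95% interval. Red points have an unadjusted p under 0.05 and number 7 of 162, and none passed after adjustment.

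Rara, the retinoic acid receptor alpha, had the smallest p of the members in the F-test (adjusted p = 1.00 in limma). Its probe lies at chr11:98836197-98836256 on the plus strand (mm9). In HC2, its values in replicates 1 to 4 were -1.07, -1.02, -1.31 and -0.70. In HC6 they were -1.88, -1.76, -1.61 and -2.01. The HC2 pools all lay above the HC6 pools. For this pair of codes the pools did not overlap in 2 of 27 members, Rara and Nr1h4 (7.41%), and in 1.45% of genes. The pair was picked because Rara had in it the smallest p over all members and pairs. That choice favours the members, so the 2 shares cannot be weighed against each other. In HC1 the values were -1.74, -1.39, -1.26 and -1.06, and in HC3 they were -1.32, -1.27, -1.74 and -1.02. In HC4 they were -1.16, -1.40, -1.45 and -1.59, and in HC5 they were -1.43, -1.26, -1.78 and -1.67. Those 4 codes overlapped one another, HC2 overlapped each of them, and HC6 overlapped HC1, HC3 and HC5.

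The order of the Rara means was HC2 (-1.02 ± 0.25, SD, n = 4), HC3 (-1.34 ± 0.30), HC1 (-1.36 ± 0.28), HC4 (-1.40 ± 0.18), HC5 (-1.53 ± 0.24) and HC6 (-1.81 ± 0.17). The HC2 mean minus that of the other codes was 0.46 (SE 0.13, limma adjusted p = 1.00), and for HC6 the same difference was -0.48 (SE 0.13, limma adjusted p = 1.00). The difference between HC2 and HC6 was 0.79 (SE 0.17, limma adjusted p = 1.00). None passed after adjustment. Within the 3 slides, the HC2 difference was 0.44, 0.16 and 0.81, and the HC6 difference was -0.58, -0.31 and -0.68, with 1 or 2 pools of the code on a slide.

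Another Rara probe, detected on 14 arrays, gave a different order. Its means were -2.82 ± 0.44 in HC2 and -2.90 ± 0.86 in HC6, beside -2.58 ± 0.70 in HC1, so HC2 lay below the mean of the other codes by this probe (difference -0.14). With the mean of the kept Rara probes the HC2 and HC6 differences were 0.16 and -0.36. With background corrected by normexp and quantile normalization, the HC2 difference of the main probe was 0.18 and the HC6 difference was -0.18. With the authors' deposited values they were 0.23 and -0.21. The normexp setting adds an offset of 50 to each signal, which shrinks log2 differences of dim spots more than those of bright ones. How the authors' values were made is not given. Sizes under these settings are therefore not on the scale of the main ones. For the bright Nr5a2 probe the HC1 difference was 0.24 and 0.26 under them.

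Nr5a2 had the smallest p of the members in HC1. Its probe lies at chr1:138740903-138740962 on the minus strand (mm9). In HC1 its values were 3.47, 3.69, 3.53 and 3.57. In HC2 they were 3.39, 3.10, 3.42 and 3.15, and in HC3 they were 3.30, 3.43, 3.40 and 3.45. All HC1 pools lay above those of HC2 and HC3. In HC4 the values were 3.30, 3.50, 3.35 and 3.38, in HC5 they were 2.99, 3.44, 3.44 and 2.97, and in HC6 they were 3.51, 3.46, 3.13 and 3.33. HC1 lay above HC5 too, and overlapped HC4 and HC6. Nr5a2 was named for its small p in HC1, which favours such separation. For these pairs the share of all genes that lay apart was not counted. The HC1 mean of 3.56 ± 0.09 (SD, n = 4) differed from the others by 0.24 (SE 0.09, limma adjusted p = 1.00). The HC1 difference was 0.31, 0.13 and 0.27 within the slides. The gene varied little between pools, with a residual SD at the 16th percentile of all genes tested.

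Pparg had the smallest p of the members in HC3, where replicate 4 had no value because its spot was marked as an outlier. The probe lies at chr6:115440213-115440272 on the plus strand (mm9) and was detected on 15 arrays. In HC3 the other 3 values were -2.93, -3.98 and -2.87, and in HC2 the values were -2.73, -2.54, -1.78 and -1.60. In HC1 they were -3.48, -2.73, -2.42 and -2.95, and in HC4 they were -2.75, -2.98, -3.05 and -2.65. In HC5 they were -1.48, -2.91, -2.96 and -2.65, and in HC6 they were -2.92, -3.28, -1.76 and -2.93. The HC3 pools lay below the HC2 pools and overlapped the pools of HC1, HC4, HC5 and HC6. Pparg was named for its p in HC3, and the share of all genes apart between HC3 and HC2 was not counted. The HC3 difference was -0.63 (SE 0.33, limma adjusted p = 1.00) with 3 pools, and -0.27 without its replicate 2. It was -0.13 with normexp and quantile normalization and -0.17 with the authors' deposited values. As for Rara, these sizes are not on the scale of the main difference. The HC2 difference was 0.68 (SE 0.29, limma adjusted p = 1.00).

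Nr1d2 had the smallest p in HC4, at chr14:19036568-19036627 on the minus strand (mm9). Its HC4 values were -2.31, -2.32, -1.45 and -1.80. In HC1 they were -2.58, -3.16, -2.90 and -2.06, and in HC2 they were -2.87, -3.40, -2.22 and -1.85. HC4 overlapped both. In HC3 the values were -2.45, -2.48, -3.50 and -2.21, in HC5 they were -2.94, -3.12, -2.24 and -1.12, and in HC6 they were -3.08, -2.15, -2.12 and -2.28. The highest value of all was that of HC5 replicate 4. The HC4 difference was 0.57 (SE 0.32, limma adjusted p = 1.00). It was 0.16 with normexp and quantile normalization and 0.21 with the authors' deposited values. These sizes too are not on the scale of the main difference. The probe was detected on all 4 arrays of HC4 and on 1 to 3 arrays of each other code.

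Nr1h4 had the smallest p in HC5. Its probe lies at chr10:88917222-88917281 on the minus strand (mm9). The HC5 values were -4.81, -2.72, -2.63 and -3.41, and the HC6 values were -2.31, -2.41, -2.41 and -2.03. All HC6 pools lay above the HC5 pools. In HC1 the values were -3.13, -2.38, -2.86 and -2.67, and in HC2 they were -2.51, -2.62, -4.10 and -2.65. In HC3 they were -2.44, -2.92, -2.85 and -2.97, and in HC4 they were -2.56, -2.11, -3.45 and -2.93. HC5 overlapped HC1 to HC4. Nr1h4 was named for its p in HC5, and the share of all genes apart between HC5 and HC6 was not counted. The HC5 difference was -0.68 (SE 0.31, limma adjusted p = 0.849), and it was -0.20 without replicate 1, the lowest pool. Within the slides it was -2.25, 0.09 and -0.24. The probe was detected on 2 of the 4 HC5 arrays. The HC5 difference was -0.77 with quantile normalization alone and -0.72 with the mean of the kept probes. It was -0.13 with normexp and quantile normalization and -0.17 with the authors' deposited values, both on another scale than the main difference.

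**Figure D3:**
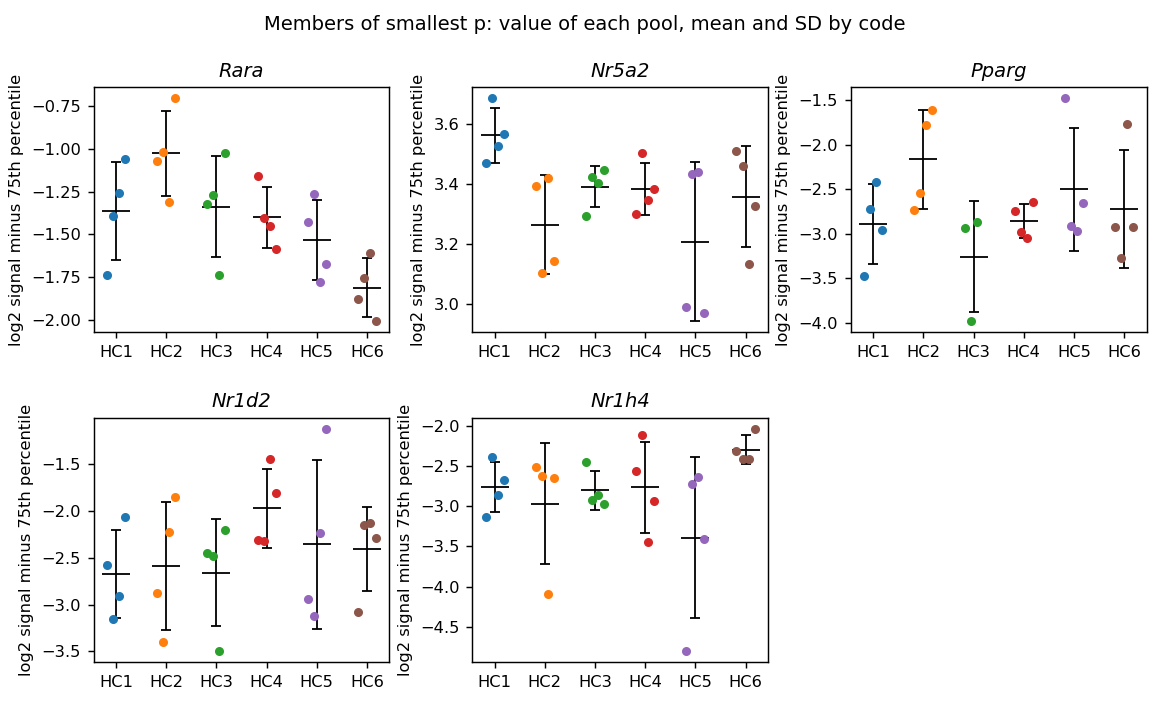
Value of each pool (points, replicates 1 to 4 from left to right), code mean (short horizontal line) and SD (bars), as log2 signal minus the 75th percentile of the array. The 5 members shown each had the smallest p of the members in a code against the other 5. The HC2 and HC6 pools of Rara lie apart, and the low HC5 mean of Nr1h4 rests on the pool at -4.81.

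Of the members above, Rara, Nr5a2, Nr1h4 and, in HC2, Pparg had an unadjusted limma p under 0.05 in a code. Nr1d2 had none, and Pparg had none in HC3. Nr2c1 and Nr2c2 also had such a p. They are orphan receptors (TR2 and TR4) that repress embryonic globin genes as a heterodimer. Nr2c1 differed in HC6 by 0.41 (SE 0.15, limma adjusted p = 1.00), where replicate 1 stood at 0.63 and the code mean was -0.18 ± 0.55. Without that pool the HC6 difference was 0.14. Nr2c2 differed in HC5 by -0.27 (SE 0.13, limma adjusted p = 0.849), and without HC5 replicate 4 the HC5 difference was -0.07.

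The remaining members are given by their range over the pools and their lowest and highest code means. Among the retinoid receptors, Rarb ranged from -1.87 to 0.63, with means from -1.33 ± 0.40 in HC1 to -0.88 ± 1.03 in HC5. Rarg ranged from -1.94 to -0.03, with means from -1.15 ± 0.19 in HC6 to -0.57 ± 0.52 in HC4. Rxra ranged from 3.24 to 4.27, with means from 3.51 ± 0.18 in HC6 to 3.79 ± 0.32 in HC5. Rxrb ranged from 2.35 to 3.46, with means from 2.82 ± 0.35 in HC6 to 3.04 ± 0.32 in HC5, with no value for HC3 replicate 3. Rxrg ranged from -3.23 to -0.94, with means from -2.49 ± 0.47 in HC2 to -1.82 ± 0.23 in HC1.

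Among the lipid sensors, Ppard ranged from 1.32 to 2.29, with means from 1.77 ± 0.32 in HC6 to 2.07 ± 0.17 in HC2. Nr1h2 ranged from 2.50 to 3.25, with means from 2.69 ± 0.18 in HC6 to 2.85 ± 0.29 in HC5. Nr1h3 ranged from -3.67 to -0.06, with means from -2.95 ± 0.50 in HC4 to -2.18 ± 1.45 in HC2, where replicate 4 gave the highest value. Thra ranged from -1.68 to -0.72, with means from -1.27 ± 0.35 in HC5 to -1.11 ± 0.32 in HC4. Nr1i3 ranged from -3.92 to -1.23, with means from -2.52 ± 1.38 in HC3 to -1.96 ± 0.69 in HC5.

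Hnf4a ranged from -0.92 to 0.29, with means from -0.32 ± 0.45 in HC6 to -0.07 ± 0.34 in HC1. Nr2c1 ranged from -1.005 to 0.63, with its lowest mean, -0.77 ± 0.19, in HC5, and Nr2c2 from -0.87 to 0.32, with means from -0.26 ± 0.42 in HC5 to 0.08 ± 0.17 in HC3. Nr2f2 ranged from -4.44 to -1.35, with means from -3.15 ± 0.88 in HC5 to -2.06 ± 0.62 in HC3. Nr2f6, a repressor of the COUP-TF group, ranged from 2.25 to 3.30, with means from 2.50 ± 0.06 in HC1 to 2.71 ± 0.44 in HC5. Nr3c1 ranged from -0.63 to 0.69, with means from 0.15 ± 0.54 in HC5 to 0.54 ± 0.09 in HC2.

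Nr4a1 had the narrowest range of all 27, from 2.05 to 2.70, which is 1.56-fold. Its means ran from 2.30 ± 0.29 in HC5 to 2.52 ± 0.08 in HC4. Nr4a2 ranged from -2.21 to -1.11, with means from -1.76 ± 0.44 in HC4 to -1.58 ± 0.30 in HC1. Nr4a3 was detected on all 4 arrays of HC2 and HC3, on 2 of HC1, on 3 of HC4 and HC6, and on 0 of HC5, and ranged from -3.31 to -1.61. Since its HC5 value is only a bound, it was set at the higher of the array's dimmest detected signal and its own value, which gave -2.61 (measured mean -2.69). The HC2 mean (-2.03 ± 0.54) was 1.5-fold above -2.61. The HC3 mean (-2.25 ± 0.52) was 1.29-fold above it and the HC1 mean (-2.37 ± 0.77) 1.19-fold. These folds compare means and are not minimum differences between the codes. By the measured values, HC5 differed from the other codes by -0.30, with a confidence interval from -0.93 to 0.33 that includes no difference. The means of HC4 (-2.68 ± 0.52) and HC6 (-2.64 ± 0.65) lay below the bound, so no fold is given for them. The limma F-test over codes had an adjusted p of 1.00.

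Nr5a1 ranged from -2.63 to -1.62, with means from -2.27 ± 0.27 in HC5 to -2.06 ± 0.35 in HC2. Nr6a1 ranged from 0.54 to 2.85, with means from 2.00 ± 1.02 in HC5 to 2.50 ± 0.21 in HC3. Nr0b1 ranged from -4.47 to -1.03, with means from -2.34 ± 1.42 in HC1 to -1.49 ± 0.71 in HC4. In HC1 and HC3 the spread of Nr0b1 came from replicate 2 of each code, at -4.47 and -3.76, and neither spot was well above background. The residual SD was above the median of all genes tested for all 11 members detected on 4 to 23 arrays and for 5 of the 16 detected on all 24.

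**Figure D4:**
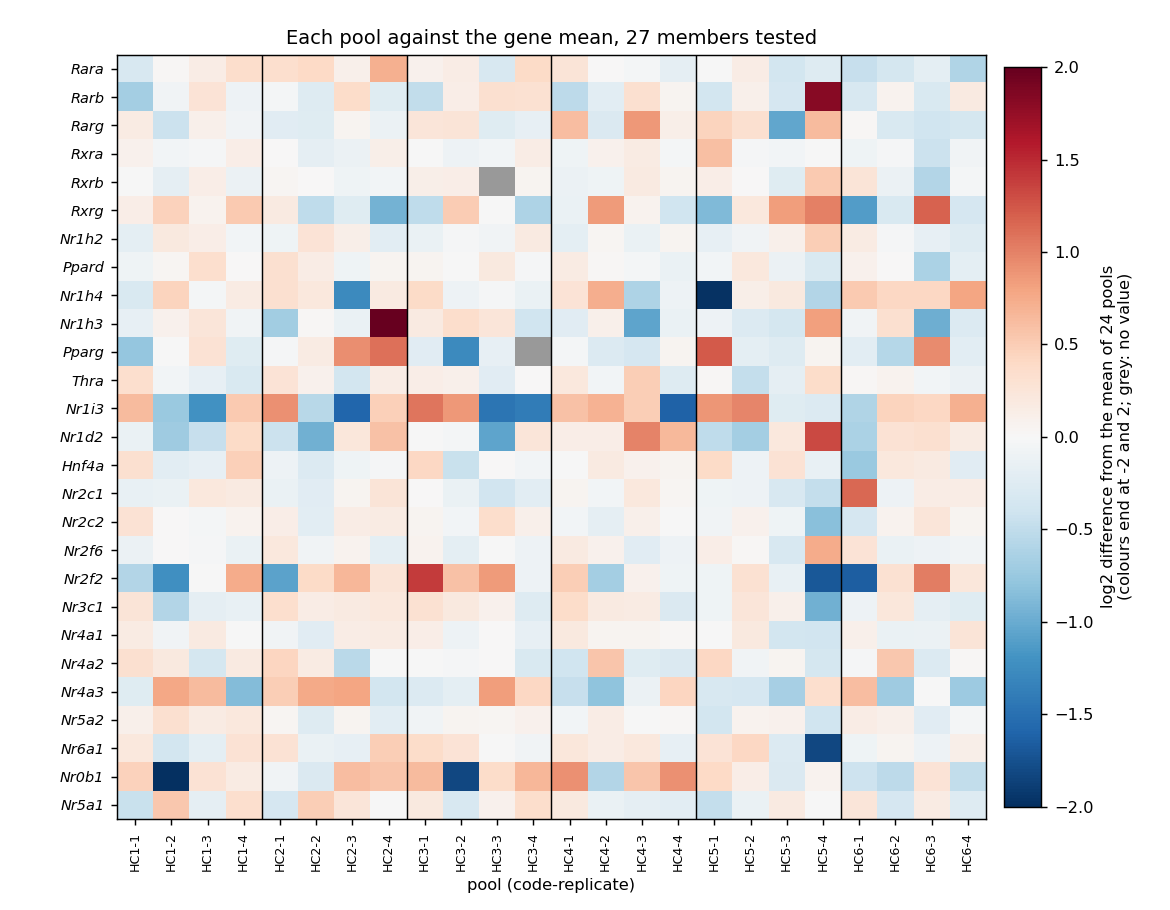
Deviation of each of the 24 pools (columns, by code and replicate) from the mean of the gene, in log2 units, for the 27 members tested (rows, grouped by role). HC5 replicate 4 has the highest Rarb, at 0.63, and the lowest Nr6a1, at 0.54, and grey cells have no value.

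HC5 replicate 4 stood apart from the other pools in many members. This was seen in the data and looked into afterwards. Over the 15 members detected and with a value on all 24 arrays, it was the lowest pool for 6 and the highest for 3 (60%), beside 39.6% of 13041 genes of the same kind. The next pool by share of all genes was HC6 replicate 3, with 16.5% of genes and 2 of 15 members. For Rarb it stood at 0.63, with the other 23 pools between -1.87 and -0.82. For Nr6a1 it stood at 0.54, with the others between 2.00 and 2.85. Nr2c2 was at -0.87 and Nr3c1 at -0.63 in this pool, below the others by 0.52 and 0.38.

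In the same pool Nr2f6 was above all others by 0.46, Nr1d2 by 0.33, Rxrb by 0.26 and Nr1h2 by 0.23. Leaving it out changed the sign of the HC5 difference for 10 of 27 members (37.0%) and for 29.4% of all genes tested. Leaving out any other pool of any code changed the sign of that code's difference for 1 to 7 of the members (3.7% to 25.9%). Over all genes tested the share for these pools was 11.0% to 21.6%. The Rarb difference in HC5 was 0.36 with this pool and -0.14 without it, and the Nr6a1 difference was -0.42 and 0.06. This array also had the lowest 75th percentile of the 24. The part of signal strength in these values was not tested.

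**Figure D5:**
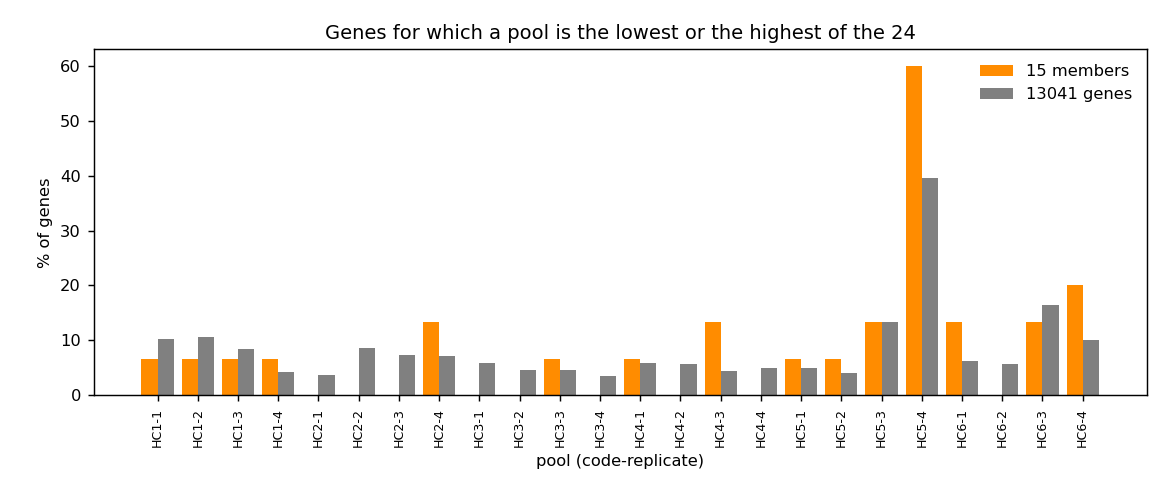
Share of genes (vertical axis, %) for which each pool had the lowest or the highest value of the 24, for 15 members (orange) and 13041 genes (grey) detected on all arrays. HC5 replicate 4 reaches 60% of the members and 39.6% of the genes.

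Where several probes of a member passed the filter, they often ordered the codes differently. This could be compared for 9 members with 11 further probes. The sign of the difference of a code from the other 5 was shared with the probe used in 38 of 66 comparisons (57.6%). The same share over all genes is not given here, so it cannot be called particular to these members. For Nr1h4 and its other probe 6 of 6 signs were shared, for Nr3c1 5 of 6, for the other probe of Rxra 3 of 6 and for that of Nr1d2 2 of 6. The junction probes of Rxrb printed above shared 2 of 6 (upstream) and 5 of 6 (downstream).

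Of 8 pairs of a receptor with a paralog, partner or target, 4 had both probes detected on all arrays and were correlated across the pools. Rara and Rarg had r = 0.16 (rho 0.18, permutation p = 0.453 and 0.405, adjusted 0.604 and 0.677, n = 24). Leaving out the 2 pools farthest from the Rara median gave r = 0.15, and within the slides r was -0.12, 0.82 and 0.11. Rxra and Rxrb had r = 0.41 (rho 0.27, permutation p = 0.0649 and 0.208, adjusted 0.26 and 0.677, n = 23), which became 0.05 without HC5 replicate 1 and HC6 replicate 3. Those pools were left out for lying farthest from the Rxra median. That narrows the range of Rxra and can lower any r, so the drop cannot decide whether r rested on them. Within the slides r was 0.27, 0.79 and 0.05.

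Nr2c1 and Nr2c2 had r = 0.01 (rho 0.09, permutation p = 0.968 and 0.664, adjusted 0.968 and 0.677, n = 24). It was 0.04 without the 2 farthest pools and -0.63, -0.31 and 0.77 within the slides. Without HC5 replicate 4 alone it was -0.40. Nr5a2 and Pou5f1, the pluripotency factor that Nr5a2 activates, had r = -0.20 (rho 0.09, permutation p = 0.352 and 0.677, adjusted 0.604 and 0.677, n = 24), which became 0.14 without the 2 farthest pools, HC5 replicates 4 and 1. Within the slides it was -0.12, 0.11 and -0.46. None passed after adjustment over the 4 pairs.

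Other genes of the pathways were read from the same fit. In each of the 11 lists, 0 genes passed in limma after adjustment, in the F-test or in any code, and at most 1 gene of a list had an unadjusted p under 0.05 in the F-test. Coregulators of nuclear receptors were nearly all present, with 24 of 25 tested and all 24 of them detected on every array, and 0 had an unadjusted F-test p under 0.05. Of 16 glucocorticoid and progesterone receptor targets and chaperones 13 were tested. Dusp1, a phosphatase induced by glucocorticoids, had the smallest F-test p of these (adjusted p = 1.00 in limma), with means from 1.26 ± 0.15 in HC1 to 1.76 ± 0.19 in HC5. Of 18 clock genes 14 were tested, and Per2, a repressor of the clock, had means from -3.69 ± 0.65 in HC5 to -2.71 ± 0.44 in HC2 (limma F-test, adjusted p = 1.00). Per2 was detected on only 9 arrays, so most of its values were not well above background.

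Of 19 genes of retinoid metabolism and response 8 were tested. Rdh10, which makes retinaldehyde, had the smallest F-test p of them (adjusted p = 1.00 in limma), with means from -0.64 ± 0.24 in HC5 to -0.19 ± 0.21 in HC6. Of the targets of the fatty acid sensors 15 of 20 were tested, of those of the liver X and bile acid receptors 11 of 15, of the thyroid hormone genes 7 of 11, and of the vitamin D and xenobiotic targets 5 of 15. Of the partners and targets of Nr5a2 and Nr0b1 11 of 13 were tested, and Tbx3, a T-box factor of pluripotent cells, had means from 4.26 ± 0.09 in HC5 to 4.51 ± 0.05 in HC1 (limma F-test, adjusted p = 1.00). All 3 estrogen-type receptors tested, Esr2, Esrra and Esrrb, had an F-test p above 0.05.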

How the data were processed

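RNA from 24 pools was measured on one-colour Agilent arrays. Per the file headers, the deposited spot intensity was extracted by Agilent Feature Extraction (version 10.10.1.1, also in the submitters' processing notes), with background subtraction and detrending inside each array and no normalization between arrays. Deposited flags mark outlier spots and spots well above background. The authors' deposited log2 values (27101 probes, column medians 7.00 to 7.01, 443 missing) were used as an alternative; each column correlated best with its own array (r 0.834 to 0.888 across probes). How they were background corrected, normalized and filtered is not given in the sources used here.

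Control spots and 3270 outlier spots were left out. The log2 processed signal minus the 75th percentile of each array was averaged per probe. Probes well above background on at least 4 arrays with at least 2 values a code were kept (27144), and the brightest kept probe stood for its gene. Symbols came from the file or, for 1517 and 519 probes, from an accession or synonym in RefSeq. A linear model of the 6 codes was fitted in R 4.3.3 with limma 3.58.1 (and data.table, version 1.17.8), with Benjamini-Hochberg adjustment at 0.05 over all 18448 genes, within each code contrast, or over genes and pairs together. The code was tested on simulated data. Correlations used 100000 permutations. Python 3.11.15, numpy 2.4.6, pandas 2.3.3, scipy 1.17.1 and matplotlib 3.10.9 did the rest. Alternatives were normexp (offset 50) with quantile normalization, quantile normalization alone, a percentile over detected probes, other probe filters and rules, slide (8 arrays on each of 3) or replicate number as a block, and leaving out each pool.

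The members and the lists of related genes were chosen with earlier results of these data known. Named with every pool were the members of smallest p in the F-test, in each code and over the pairs. Arrays limit precision by their number; no counts lie behind the values.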

Additional observations from a re-analysis of the deposited data

Results flagged for a closer look

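Each of the 27 members tested has 6 codes, which gives 162 groups, and in 11 of them 1 pool stood far from the other pools (its gap to the nearest, as a share of the range, exceeded Dixon's 95% value for 4 pools). For normally distributed values, chance marks about 1 in 20 groups in this way. The share over all genes was not counted, so the 11 cannot be called particular to these members. Nr0b1 accounted for 3, at -4.47 in HC1 replicate 2, -3.76 in HC3 replicate 2 and -1.66 in HC6 replicate 3. Rxra stood out at 4.27 in HC5 replicate 1 and at 3.24 in HC6 replicate 3. Nr1d2 in HC6 replicate 1 was at -3.08, Nr1h4 in HC2 replicate 3 at -4.10 and Nr1i3 in HC4 replicate 4 at -3.92. Nr2c2 in HC2 replicate 2 was at -0.23, Nr2f6 in HC6 replicate 1 at 2.84 and Nr4a2 in HC3 replicate 4 at -1.98. Of the 11 pools, those of Nr2f6, of Rxra in HC5 and of Nr0b1 in HC6 were higher than the rest of their code, and the others lower. HC5 replicate 4 was marked in 0 of these groups. In 5 of the 11 groups the spot of that pool was not well above background, which applies to Nr1d2, Nr1h4, Nr1i3 and Nr0b1 in HC1 and HC3.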

How the results depend on the processing

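Under 10 other settings and 24 that each left out 1 pool, 0 members were called in any test. Counts of genes called were 0, as in the main analysis, with these exceptions. With the authors' deposited values 2 genes were called in HC2, and with no filter on dim probes 1 gene in HC5. Leaving out 1 pool at a time gave 0 to 1 genes in the F-test, in HC1 and in HC5, 0 to 3 in HC2, 0 to 2 in HC4 and 0 to 4 over the pairs; the nonzero counts came without HC1 replicate 3 (1 in the F-test, 1 in HC1, 4 in the pairs), HC2 replicate 1 (3), HC4 replicate 4 (2 in HC4, 3 in the pairs) or HC5 replicate 1 (1). With a looser detection flag (signal positive and significant over background) 25 members, not 16, were detected on all arrays. The correlation of Nr2c1 and Nr2c2 turned to -0.052 with normexp and quantile normalization and -0.17 with the authors' deposited values. The HC2 difference of Rara turned to -0.14 with its other probe, an alternative chosen after seeing the data. The cause of these changes was not tested.

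The correlation of same-numbered pools was over 0.1 in 25 of 60 pairs (median -0.01), so the numbers are not taken to pair the pools. Of the 24 pools, 13 correlated best with their own number, which is a hint from the data and not from the design. The number expected by chance was not worked out, so a pairing is not excluded. All pools of replicate 1 were on slide 1 and all of replicate 4 on slide 3, so number and slide cannot be fully told apart. With the replicate number as a block, 0 genes were called in the F-test, in any code and over the pairs. With 4 pools a code and a median standard error of 0.17, small differences were not detectable.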
